A study of Mus musculus with 6 samples.

Results

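The genes described here are 9 ligands and receptors with which an antigen-presenting cell stimulates or restrains T cells: Cd40, Cd80, Cd86, Icosl, Tnfsf9, Cd274, Pdcd1lg2, Vsir and Cd276. They were chosen by symbol, each as a feature paired with exactly 1 gene symbol, and all 9 were measured, by 1 feature each, among 22180 genes on the arrays. The samples were cultures of J774A.1, a mouse macrophage-like line labelled Balb/c, grown in RPMI-1640 with 10% FCS (fetal calf serum) to 80% confluence. In the NPFF group, 3 cultures received neuropeptide FF (NPFF), an amidated peptide of the RF-amide family, at 1 nM in PBS for 18 h, and in the control group 3 cultures received the PBS vehicle for 18 h. Sample titles call the controls non-treated, the treatment label calls them vehicle-treated, and nothing in the labels says on which days the cultures were grown. All 6 arrays come from 1 cell line with no T cells added, and p-values reflect only the variation among these cultures.

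T cells need a second signal beside the antigen receptor, and macrophages give or withhold it through surface proteins of the B7 and TNF families. CD80 and CD86 bind CD28, which promotes T cell activation, and CTLA-4, which restrains it, while PD-L1 and PD-L2 bind the inhibitory receptor PD-1. CD40 works the other way round: it is a receptor on the macrophage, engaged by CD40L on T cells, and its signal through TRAF adaptors and NF-kB raises costimulatory ligands.

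NPFF was compared with control for each gene on normalized log2 intensities, and a difference is the mean of the NPFF arrays minus the mean of the control arrays, so that a negative value is a lower level in NPFF. Of the 9 genes, 7 had a negative difference and 2 a positive one, with a median of -0.06 log2. Single controls moved this count, with 3 of the 9 negative and a median of 0.07 without control 2, and all 9 negative and a median of -0.14 without control 1. Over all genes 48.3% had a negative difference, and the median was 0.00. These were 40.0% and 0.03 without control 2, and 60.9% and -0.02 without control 1. By limma's moderated test with Benjamini-Hochberg adjustment over the 22180 genes, 0 of the 9 had an adjusted p under 0.05, as did 0% of all genes. At an unadjusted p under 0.05 there were 0 of the 9 and 556 genes in all, or 2.51%, of which 185 were higher and 371 lower in NPFF. That split was 95 higher and 404 lower on the deposited scale, 45 higher and 326 lower once each array was centred on its median, and 324 higher and 441 lower under cyclic loess. Some members had an unadjusted p under 0.05 in other settings: Cd80 on the deposited scale, with median centring and without control 3, Cd40 under cyclic loess and without control 1, Cd274 without control 1, and Cd86 without controls 1 and 2. The adjusted p was above 0.05 for each of them there, and the genes at an unadjusted p under 0.05 then numbered 499 on the deposited scale, 371 with median centring, 765 under cyclic loess, 2397 without control 1, 937 without control 3 and 1130 without controls 1 and 2. Cd40 and Cd80 were the members whose 3 NPFF values all lay below the 3 control values, a pattern found in 4.92% of all genes, and no member had all NPFF values above the controls, against 3.67% of all genes.

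The control arrays were spread more widely than the NPFF arrays for most members. The SD was larger in control than in NPFF for 8 of the 9, with Cd40 the exception, and for 80.4% of all genes. The median SD of the 9 was 0.09 in NPFF and 0.21 in control. The departure of an array was measured as the SD, over all genes, of its difference from the average of the NPFF arrays and control 3 (without the array itself). It was 0.10 to 0.12 for the NPFF arrays, 0.36 for control 1, 0.17 for control 2 and 0.11 for control 3. This reference consists mostly of NPFF arrays and leaves out controls 1 and 2. The value of a control therefore also holds any difference between the groups. Control 1 was the lowest array for 6 of the 9 members and for 48.9% of all genes. Control 2 was the highest array for 6 of the 9 and for 33.1% of all genes. Of 10 macrophage markers, all measured, 0 lay below the 25th percentile of signal, and the mean over the list was 10.65 to 10.74 in NPFF and 10.46 to 10.75 in control. Single markers differed more than this mean: the receptor gene Csf1r was apart at 0.46 (SE 0.20), or 0.22 without control 1, and Adgre1, which encodes F4/80, overlapped at -0.19 (SE 0.11), or -0.30 without control 1. Of 12 T and NK cell markers, 5 lay below the 25th percentile of signal, among them Cd3e at 24.0, whereas Cd5 stood at 53.4 and Nkg7 at 57.5. The means of these 12 were 5.88 to 5.91 in NPFF and 5.89 to 5.98 in control, and those of 7 B cell markers 6.49 to 6.52 and 6.39 to 6.58. Among the B cell markers Ighm was apart at 0.24 (SE 0.08, unadjusted p 0.0253 and adjusted p 1.00 by limma) but at -0.09 as the mean over its 7 features, Blnk was apart at -0.16 (SE 0.07), and Cr2 ran from 5.42 to 7.53 across the controls. The corresponding ranges were 6.60 to 6.65 and 6.59 to 6.69 for 8 dendritic cell markers, and 6.18 to 6.22 and 6.10 to 6.23 for 12 fibroblast, epithelial and endothelial markers. Of the 8 dendritic cell markers, 6 were lower and 2 higher. Xcr1 was apart at -0.18 (SE 0.11), or -0.06 without control 1. Itgax overlapped at -0.11 (SE 0.14), or -0.27 without control 1, and Ccr7 at 0.16 (SE 0.10), or 0.26 without control 1. The part of all these cell types in any difference was not tested, and in such cultures fewer cells of a kind and less RNA per cell cannot be told apart.

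**Figure D1:**
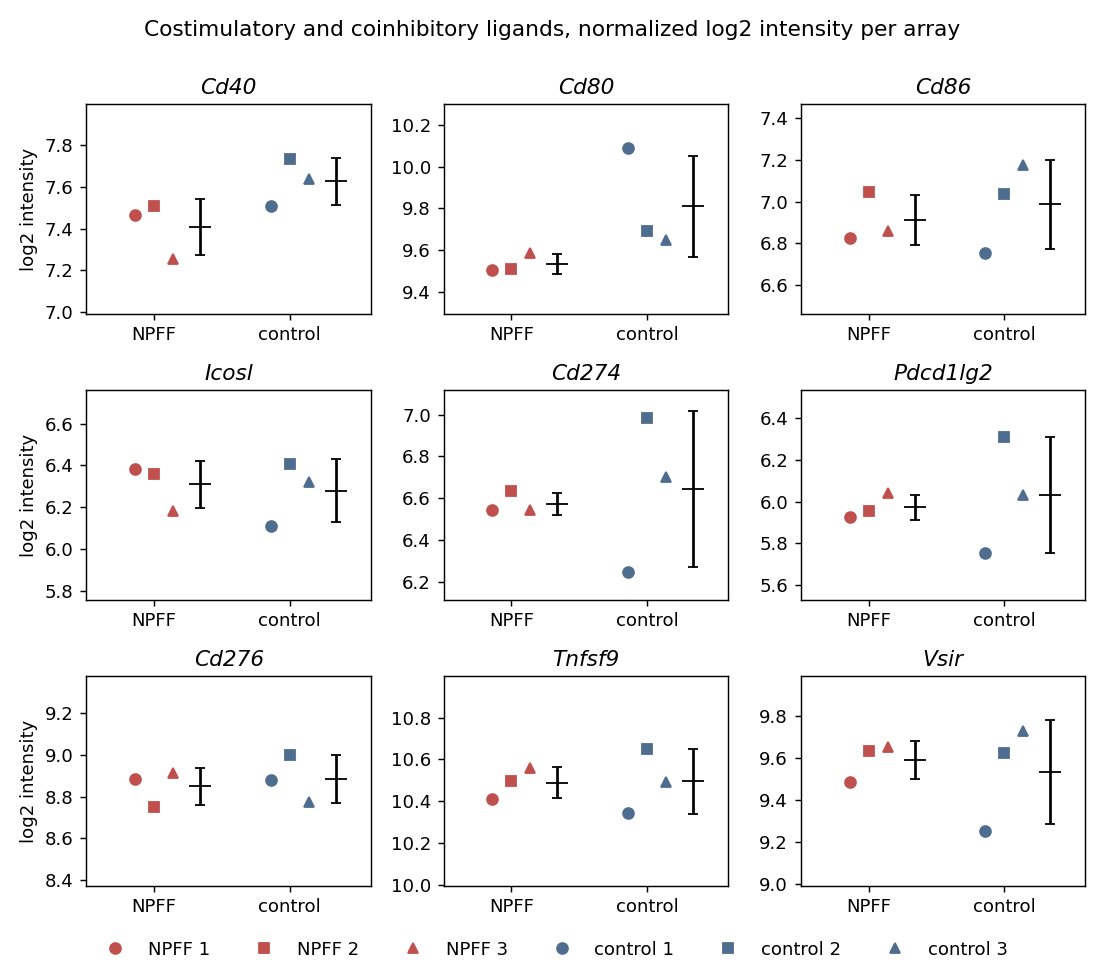
Normalized log2 intensity of the 9 genes on each array, with 1 panel per gene, NPFF on the left and control on the right. Symbols are single arrays by replicate number, the bar and whiskers are the mean and SD of 3 arrays, and every vertical axis spans the same width in log2. The NPFF values lie below all controls only for Cd40 and Cd80, and control 1 lies far from the other arrays for Cd80, Cd274 and Vsir.

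Cd40 (feature 17379659) encodes the receptor through which T cells license the macrophage. Its normalized log2 intensity was 7.46, 7.51 and 7.25 in NPFF arrays 1 to 3, against 7.51, 7.73 and 7.64 in control arrays 1 to 3. NPFF 3 was the lowest array and control 2 the highest, and the groups were separated by only 0.0037 log2, between NPFF 2 and control 1. The means were 7.41 ± 0.14 in NPFF and 7.63 ± 0.11 in control (SD, n = 3 each), a difference of -0.22 (SE 0.10, 95% interval -0.45 to 0.01), or 0.859-fold. By limma the unadjusted p was 0.0605 and the Benjamini-Hochberg adjusted p was 1.00. The unadjusted p was 0.0187 under cyclic loess and 0.0131 without control 1, with adjusted p of 1.00 and 0.378 by limma. As the groups did not overlap, the difference was negative against each control on its own, at -0.10, -0.33 and -0.23 for controls 1, 2 and 3. It depended on NPFF 3, without which it was -0.14. On the deposited scale Cd40 stood at 7.48, 7.52 and 7.26 in NPFF and at 7.42, 7.78 and 7.68 in control, so that the groups overlapped, and median centring of the arrays gave an overlap as well. Under cyclic loess they were apart by 0.15.

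Cd80 (feature 17325608) encodes CD80, or B7-1, which binds CD28 and, more tightly, CTLA-4. Its values were 9.50, 9.51 and 9.59 in the NPFF arrays and 10.09, 9.69 and 9.65 in the controls. The NPFF arrays were close together and all below the controls, and control 1 was far above every other array. The means were 9.53 ± 0.05 in NPFF and 9.81 ± 0.24 in control (SD, n = 3 each). The difference was -0.28 (SE 0.12, 95% interval -0.58 to 0.02), or 0.825-fold, with an unadjusted p of 0.0643 and an adjusted p of 1.00 by limma. The unadjusted p was 0.0249 on the deposited scale, 0.00904 with median centring and 0.0385 without control 3, with adjusted p of 1.00, 1.00 and 0.936 by limma. Against controls 1, 2 and 3 on their own it was -0.56, -0.16 and -0.12. Leaving out control 1 therefore moved it to -0.14, and leaving out controls 1 and 2 together to -0.12. The groups stayed apart on the deposited scale, with median centring and under cyclic loess. The other settings could not make them overlap, because they kept the same values or only removed arrays.

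Cd86 (feature 17330203) encodes the other ligand of CD28 and CTLA-4, which is often present on resting antigen-presenting cells before CD80. It stood at 6.83, 7.05 and 6.86 in NPFF and at 6.76, 7.04 and 7.17 in control. Control 1 was the lowest array and control 3 the highest, so the groups overlapped, and control 1 departed downward where it had departed upward for Cd80. The means were 6.91 ± 0.12 in NPFF and 6.99 ± 0.21 in control (SD, n = 3 each), a difference of -0.08 (SE 0.12, 95% interval -0.37 to 0.22). Without control 1 it was -0.19, and without control 3 it was 0.01.

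Upstream sequence was available from the RefSeq promoter table (GRCm38.p6) for 6 of the 9 genes, and Cd40, Cd86 and Tnfsf9 were not matched. The 250 bases before the transcript start were searched for 8 short motifs on both strands. They were the STAT dimer motif TTCNNNGAA, its wider form TTCNNNNGAA bound by STAT6, the interferon response motif GAAANNGAAA, TGANTCA (AP-1), GAGGAA (PU.1), GGGCGG (Sp1), TATAAA and the kappaB consensus. The sequence of Cd80, the matched gene whose groups did not overlap, lies at chr16:38458683-38458932 on the plus strand. It is shown 5′ to 3′ with matches in capitals.
Cd80: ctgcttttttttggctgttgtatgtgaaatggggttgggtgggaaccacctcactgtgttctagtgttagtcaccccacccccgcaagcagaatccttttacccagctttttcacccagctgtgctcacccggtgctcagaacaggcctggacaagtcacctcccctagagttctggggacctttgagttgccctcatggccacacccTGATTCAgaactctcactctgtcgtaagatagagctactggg
The capitals mark TGANTCA at positions -42 to -36 from the start, a motif present in 6.75% of 32851 promoters of this length, and the other 7 motifs were not found in this window. A match is a description of letters, not of binding.

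Icosl (feature 17234786) encodes the ligand of ICOS, a CD28 relative that supports helper T cells. Its values were 6.38, 6.36 and 6.18 in NPFF and 6.11, 6.41 and 6.32 in control, with control 1 lowest, control 2 highest and the groups overlapping. The means were 6.31 ± 0.11 in NPFF and 6.28 ± 0.15 in control (SD, n = 3 each). The difference of 0.03 (SE 0.10, 95% interval -0.21 to 0.27) was smaller than its error and turned to -0.05 without control 1.

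Tnfsf9 (feature 17338959) encodes the TNF-family ligand of the T cell receptor 4-1BB, and its feature lay at the 96.3rd percentile of signal. It stood at 10.41, 10.50 and 10.56 in NPFF and at 10.34, 10.65 and 10.49 in control. The NPFF arrays lay between control 1 and control 2. The means were both 10.49, with an SD of 0.07 in NPFF and 0.15 in control (n = 3 each), and the difference was -0.01 (SE 0.09, 95% interval -0.24 to 0.22).

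Cd274 and Pdcd1lg2 encode PD-L1 and PD-L2, the ligands of PD-1, and they are neighbours on chromosome 19 in the RefSeq annotation, with no protein-coding gene between them. Interferon-gamma is a known inducer of PD-L1, and interleukin-4 of PD-L2. Cd274 (feature 17358544) stood at 6.54, 6.64 and 6.54 in NPFF and at 6.25, 6.98 and 6.70 in control. Pdcd1lg2 (feature 17358552) stood at 5.93, 5.95 and 6.04 in NPFF and at 5.75, 6.31 and 6.03 in control. In both genes control 1 was the lowest array, control 2 was the highest, and all 3 NPFF arrays lay between them. The NPFF arrays of Cd274 spanned 0.09 log2 and its controls 0.73, the widest of the 9, and those of Pdcd1lg2 spanned 0.11 in NPFF and 0.55 in control. The Cd274 means were 6.57 ± 0.05 in NPFF and 6.64 ± 0.37 in control (SD, n = 3 each), a difference of -0.07 (SE 0.18, 95% interval -0.50 to 0.36). The Pdcd1lg2 means were 5.97 ± 0.06 in NPFF and 6.03 ± 0.28 in control (SD, n = 3 each), a difference of -0.06 (SE 0.14, 95% interval -0.39 to 0.28). Their direction depended on which control was used. Without control 1 they were -0.27 and -0.20, and without control 2 they were 0.10 and 0.08. For Cd274 the 3 NPFF values lay below controls 2 and 3 without control 1, where 18.3% of all genes did so, with an unadjusted p of 0.0179 and an adjusted p of 0.387 by limma.

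The upstream sequences of the PD-1 ligand genes are shown because these neighbouring genes encode the ligands of 1 receptor. Their array order, with NPFF between controls 1 and 2, was also that of Icosl and Tnfsf9. That of Cd274 lies at chr19:29367188-29367437 and that of Pdcd1lg2 at chr19:29410669-29410918, both on the plus strand of GRCm38.p6, from RefSeq, 5′ to 3′ with matches to the same 8 motifs in capitals.
Cd274: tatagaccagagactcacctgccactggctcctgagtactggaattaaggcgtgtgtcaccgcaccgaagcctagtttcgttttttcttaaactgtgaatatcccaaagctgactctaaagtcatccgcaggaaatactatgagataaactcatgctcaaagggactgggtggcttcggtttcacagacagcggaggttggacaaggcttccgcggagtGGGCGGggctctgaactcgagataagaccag
Pdcd1lg2: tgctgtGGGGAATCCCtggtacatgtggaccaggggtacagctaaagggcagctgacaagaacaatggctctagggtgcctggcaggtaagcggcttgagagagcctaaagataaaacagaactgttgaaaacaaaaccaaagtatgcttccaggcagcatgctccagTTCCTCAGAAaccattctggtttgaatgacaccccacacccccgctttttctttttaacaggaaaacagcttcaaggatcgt
Cd274 held 1 match, GGGCGG at -31 to -26, a motif of 32.74% of promoters. Pdcd1lg2 held TTCNNNNGAA at -82 to -73, found in 5.85% of promoters, with GAGGAA read on the minus strand inside it (23.25%), and the kappaB consensus at -244 to -235 (7.25%). No motif was common to both windows, and TTCNNNGAA and GAAANNGAAA were in none of the 6 windows. Base composition separated the 6 further. Cd276 had 77.6% G and C with 29 CpG dinucleotides and Icosl 68.8% with 23, whereas Cd80 and Pdcd1lg2 had 52.8% and 48.4% with 3 each, and the median over all promoters was 52.4% with 6.

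Vsir (feature 17233646) encodes VISTA, an inhibitory B7-family protein of myeloid cells. It stood at 9.49, 9.63 and 9.65 in NPFF and at 9.25, 9.62 and 9.73 in control, with control 1 lowest, control 3 highest and the groups overlapping. The means were 9.59 ± 0.09 in NPFF and 9.53 ± 0.25 in control (SD, n = 3 each), a difference of 0.06 (SE 0.13, 95% interval -0.26 to 0.37). Its sign depended on control 1, against which alone it was 0.34 and without which it was -0.08.

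Cd276 (feature 17527719) encodes B7-H3, a B7-family protein found on many cell types. It stood at 8.88, 8.75 and 8.91 in NPFF and at 8.88, 8.999 and 8.77 in control. NPFF 2 was the lowest array, control 2 the highest, and control 1 lay near the middle, unlike its place in most of the other members. The means were 8.85 ± 0.09 in NPFF and 8.88 ± 0.11 in control (SD, n = 3 each). The difference was -0.03 (SE 0.08, 95% interval -0.24 to 0.17), the narrowest interval of the 9.

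**Figure D2:**
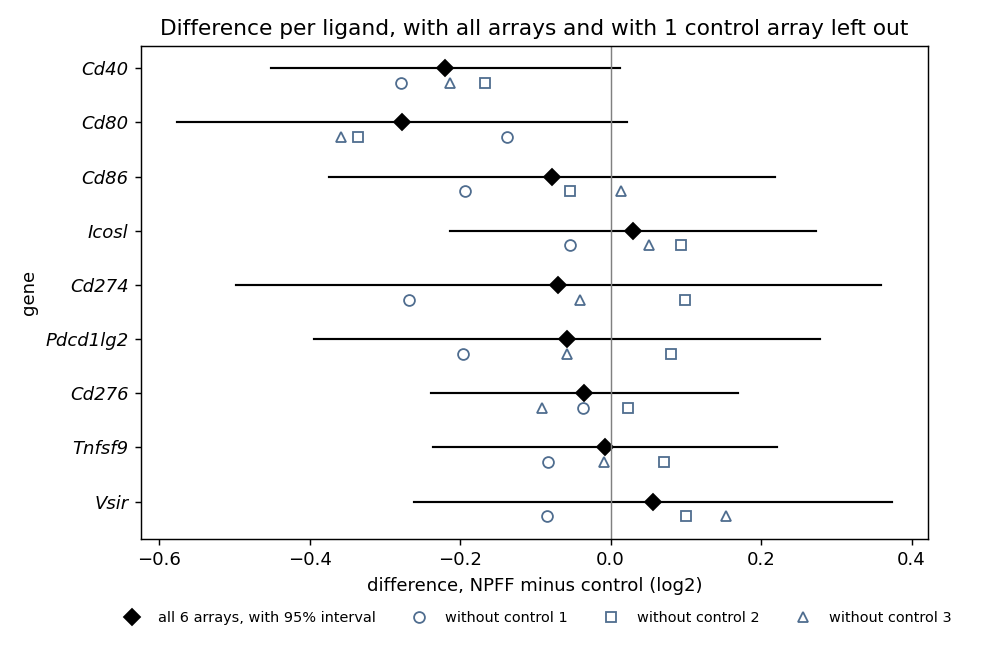
Difference of each gene in log2, NPFF minus control, with all 6 arrays (diamond, with the 95% interval of limma's fit) and with 1 control array left out (open symbols, by replicate number). All 9 intervals hold 0. Cd40 and Cd80 stay negative whichever control is left out, which follows from their groups not overlapping, and the other 7 cross 0.

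Read against single controls, the 9 genes gave different pictures. Relative to control 1, 3 of the 9 were lower in NPFF (Cd40, Cd80 and Cd276), with a median of 0.15, and 37.4% of all genes were lower. Relative to control 2, all 9 were lower, with a median of -0.16, and so were 64.2% of all genes. Relative to control 3, the control nearest the NPFF arrays, 8 of the 9 were lower, all but Cd276, with a median of -0.12, and so were 52% of all genes. The largest of these against control 3 were those of Cd86 at -0.26 and Cd40 at -0.23. These comparisons share the 3 NPFF arrays and have 1 control each, and no test was made of them as a count.

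**Figure D3:**
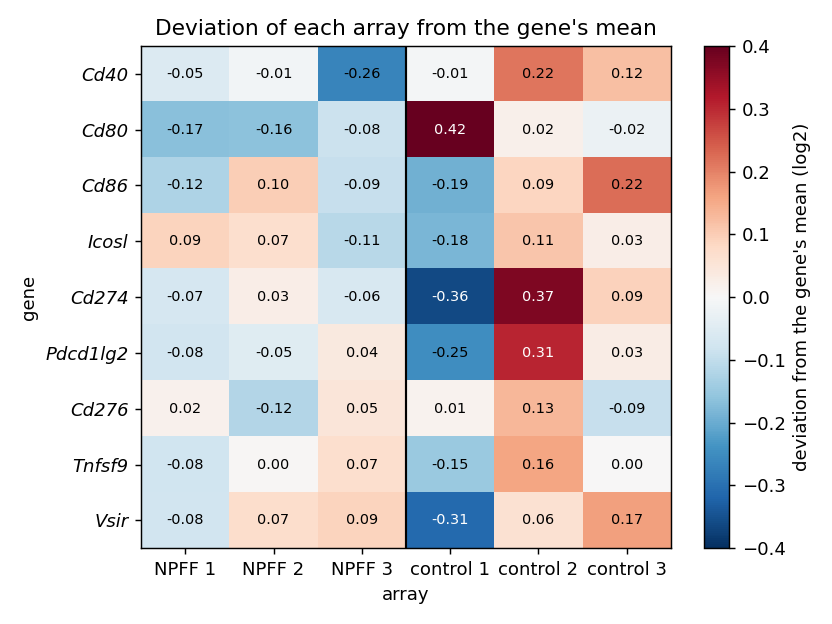
Deviation of each array from the gene's mean over the 6 arrays, in log2, for the 9 genes (rows) and the 6 arrays (columns, NPFF left of the line and control right of it). Control 2 is above the mean for all 9 genes, and control 1 runs from -0.36 for Cd274 to 0.42 for Cd80.

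The genes whose values ran most nearly parallel to the members that did not overlap were named by Pearson's r over the 6 arrays, as a description. Predicted and uncharacterized genes, and olfactory, vomeronasal and small RNA genes, were left out of the naming. The counts of genes with an r above 0.95 include them. For Cd40 these were Slfn10-ps (0.990), Fbxl5 (0.989) and Noto (0.985), and 32 genes had an r above 0.95. For Cd80 they were Sirpb1a (0.998), Ifi203-ps (0.998) and Lin9 (0.996), and 324 genes had an r above 0.95. These points share the arrays and include control 1, from which Cd80 took most of its spread.

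Signalling from CD40 to NF-kB was measured for 17 of 20 listed genes, and Traf3, Chuk and Nfkb1 were not analysed here. None had an adjusted p under 0.05. At an unadjusted p under 0.05, 2 were lower and 0 higher, against 1.67% and 0.834% of all genes. Rel, the NF-kB subunit c-Rel, had values of 10.34, 10.26 and 10.45 in NPFF and 10.86, 10.68 and 10.58 in control, a difference of -0.36 (SE 0.10). Birc3, a ubiquitin ligase bound to TRAF2 and itself an NF-kB target, had 8.44, 8.44 and 8.51 in NPFF and 8.86, 8.73 and 8.66 in control, a difference of -0.29 (SE 0.07). In both the NPFF arrays lay below every control, control 1 was highest, and the unadjusted p was 0.00831 for Rel and 0.00741 for Birc3, with an adjusted p of 1.00 by limma. Map3k7, the kinase TAK1, was apart in the same way at -0.18 (SE 0.08), or -0.12 without control 1, and Birc2 overlapped at -0.19 (SE 0.10). Of the 17 genes, 3 were apart lower and 0 higher, against 4.92% and 3.67% of all genes. Against control 3 alone Rel differed by -0.23, Birc3 by -0.19, Map3k7 by -0.11 and Birc2 by -0.06. The list as a whole had 8 genes lower and 9 higher with a median of 0.01, and 13 lower with a median of -0.05 without control 1. Without that array 60.9% of all genes were lower, with a median of -0.02.

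Of the routes that induce the PD-1 ligands, the interferon-gamma signalling list had 11 genes measured, 8 higher and 3 lower, with a median of 0.10 that turned to -0.03 without control 1. Irf8, a macrophage transcription factor, differed by -0.22 (SE 0.11), the kinase Jak2 by -0.19 (SE 0.12), the phosphatase Ptpn6 by 0.15 (SE 0.11) and the PD-L1 activator Irf1 by 0.19 (SE 0.16). Jak2 (lower in NPFF) and Ptpn6 (higher) were the genes of this list whose groups did not overlap, against 4.92% and 3.67% of all genes. Without control 1 these were -0.13, -0.05, 0.04 and 0.00. The IL-4 to STAT6 list had 6 of 8 genes measured, 4 higher and 2 lower, with a median of 0.05, and all 6 were lower without control 1, at a median of -0.11. In that setting 60.9% of all genes were lower, at a median of -0.02. Il13ra1, a chain of the receptor for IL-13 and IL-4, was apart at -0.20 (SE 0.09), or -0.12 without control 1. Klf4, a transcription factor, differed by -0.14 (SE 0.12), or -0.22 without control 1 and -0.06 without control 2, Stat6 by 0.12 (SE 0.15) and Il4ra by 0.12 (SE 0.20). Stat6 and Il4ra turned to -0.05 and -0.12 without control 1. No gene of either list had an unadjusted p under 0.05.

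Among 26 of 28 other ligands of T cell costimulatory and coinhibitory receptors, 15 were lower and 11 higher, with a median of -0.02, and 0 had an adjusted p under 0.05. At an unadjusted p under 0.05, 1 was lower and 0 higher, against 1.67% and 0.834% of all genes. At that level 0 were lower on the deposited scale and with median centring, 2 under cyclic loess and 4 without control 1. Over all genes 404, 326, 441 and 1600 were lower in these settings. Cd24a, a glycoprotein that binds inhibitory Siglec receptors, was the 1 gene of the main comparison. It had 8.43, 8.52 and 8.42 in NPFF and 8.57, 8.68 and 8.63 in control, a difference of -0.17 (SE 0.07), or -0.28 as the mean over its 2 features. Lgals9, or galectin-9, a ligand of TIM-3, had 10.24, 10.32 and 10.28 in NPFF and 10.38, 10.40 and 10.42 in control, a difference of -0.12 (SE 0.06). In both genes the NPFF arrays lay below all controls, and the difference held its size without control 1, at -0.19 and -0.13. The butyrophilin-like gene Btnl2 was also apart, at -0.18 (SE 0.08) and at -0.12 without control 1, and Btn1a1 was apart in the other direction at 0.09 (SE 0.06), a dim feature at the 20.6th percentile of signal. Of the 26, 3 were thus apart lower and 1 higher, against 4.92% and 3.67% of all genes.

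Proteins known to set the stability or surface level of these ligands, or of their receptor CTLA-4, had 12 of 13 genes measured. Of these, 7 were higher and 5 lower, with a median of 0.08, and 0.03 without control 1. None had an unadjusted p under 0.05. Cmtm6, which protects PD-L1 from lysosomal degradation, had 9.22, 9.37 and 9.22 in NPFF and 8.60, 9.01 and 9.34 in control, a difference of 0.29 (SE 0.18) that was 0.09 without control 1 and -0.07 against control 3 alone. The kinase subunit Csnk2a1 differed by 0.19 (SE 0.11), and by 0.07 without control 1. Lrba, which spares CTLA-4 from degradation, was apart at 0.11 (SE 0.07), or 0.07 without NPFF 1, and the kinase Gsk3b, which marks PD-L1 for degradation, was apart at -0.14 (SE 0.09), or -0.05 without control 1. Of the 12, 1 was thus apart lower and 1 higher, against 4.92% and 3.67% of all genes.

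**Figure D4:**
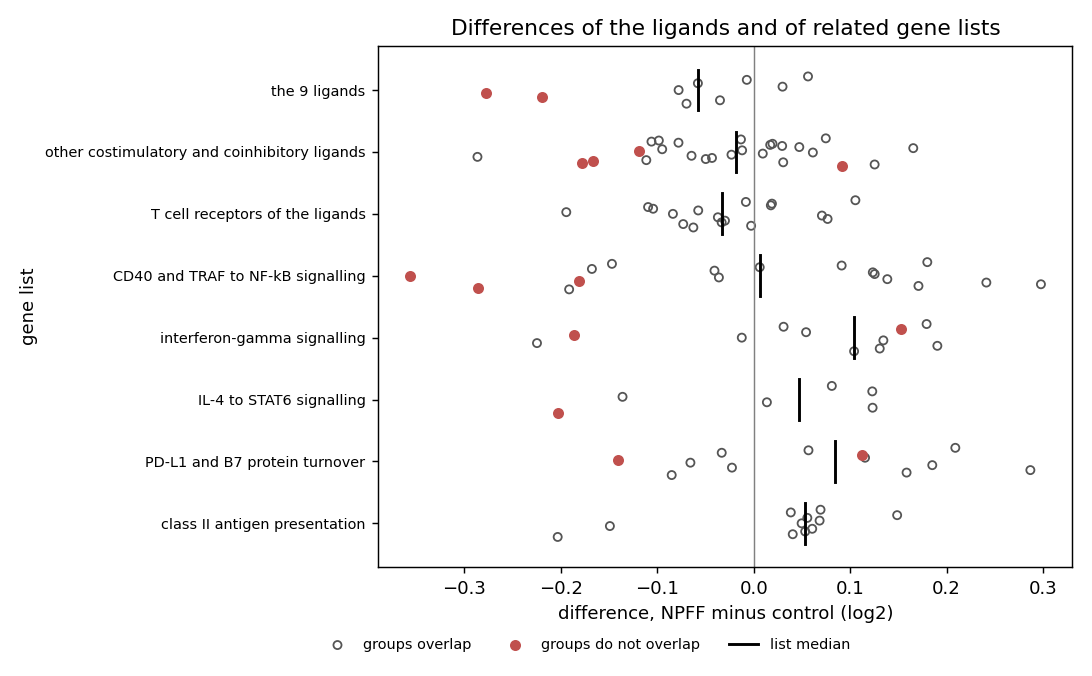
Difference of each gene in log2, NPFF minus control, for the 9 genes and 7 related lists. Each point is 1 gene, filled where the NPFF and control values do not overlap, and the vertical bar is the list median, which lies between -0.06 for the 9 genes and 0.10 for the interferon-gamma list.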

How the data were processed

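Total RNA (500 ng per sample, per the labels' protocols) from 6 cultures was measured on Affymetrix whole-transcript arrays. The deposited values are log2 intensities per feature, a scale inferred from values between 4.59 and 14.00. For the authors' software, background correction, normalization and genome build, the sources used here give nothing. The deposited arrays did not share 1 distribution, with sorted values up to 0.172 log2 from their mean, so the 33794 features were quantile-normalized. As deposited, control 1 had a median of 6.38 and an interquartile range of 2.04. The other arrays had medians of 6.24 to 6.29 and interquartile ranges of 2.31 to 2.41. A platform annotation table paired 23521 features with 1 symbol, 1814 with several and 8459 with none. The brightest feature was kept per gene, which gave 22180 genes, with no filter on dim features.

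Differences were tested with limma 3.58.1 in R 4.3.3 on group alone, two-sided, with 4 residual and 2.49 prior degrees of freedom and Benjamini-Hochberg adjustment over all genes. SE and 95% intervals are those of the moderated fit, and SD is over 3 arrays. An exact permutation test of 3 against 3 cannot go below a two-sided p of 0.1 and was not used. The percentile of signal ranks a gene's mean intensity among all genes and says how bright its feature was, not how abundant the transcript. The code was tested on simulated data.

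The members and gene lists were chosen with earlier results of these data known. Named list genes are up to 4 per list by smallest p. Listed genes that no single-symbol feature represents were not analysed here. Files and labels used here gave no scan date or batch, and the number of arrays, 3 per group, limits the precision. Promoters are from RefSeq.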

Additional observations from a re-analysis of the deposited data

How the results depend on the processing

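The 13 alternatives were the values as deposited, arrays centred on their medians, cyclic loess, removal of features with a mean at or below the 25th percentile, the mean over a gene's features, the replicate number as a block, each array left out in turn, and controls 1 and 2 left out together. By limma 0 genes had an adjusted p under 0.05 in any of them, with the smallest adjusted p at 0.138, reached without control 1. Genes at an unadjusted p under 0.05 numbered 556, between 235 and 2397 with single arrays left out (235, 268 and 304 without NPFF 1, 2 and 3, 2397 without control 1 and 937 without control 3), and 1130 without controls 1 and 2. With the replicate block there were 396, and 7 members were still lower. The labels do not say that a replicate number marks a shared culture or day, so the numbers were not taken as pairs. Same-numbered arrays had residual correlations of 0.23, 0.45 and -0.33. NPFF 1 and NPFF 2 correlated best with the control of their own number, and NPFF 3 with control 1 (0.31). These correlations cannot decide on pairing, because residuals within a group of 3 arrays depend on each other.

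Of the 9 genes, between 3 and 9 were lower with single arrays left out, with medians of 0.071 (without control 2) to -0.14 (without control 1). Of all genes, 40.0% were lower without control 2 and 60.9% without control 1. Cd40 and Cd80 stayed negative in all 13 alternatives, from -0.28 to -0.14 and from -0.36 to -0.12. As their groups did not overlap, this was fixed in advance wherever arrays were left out or the values stayed the same. Only the deposited scale, median centring and cyclic loess could have changed it. The other 7 changed sign in at least 1 of the 13. With single arrays left out Cd86 ranged from -0.19 to 0.015, Icosl from -0.054 to 0.093, Cd274 from -0.27 to 0.10, Pdcd1lg2 from -0.20 to 0.081, Cd276 from -0.091 to 0.023, Tnfsf9 from -0.083 to 0.071 and Vsir from -0.084 to 0.15. Without controls 1 and 2, which assumes that control 3 varies like the NPFF arrays, Icosl was -0.011, Cd276 0.076 and Vsir -0.14. The cause of these changes was not tested.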

Other observations

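Receptors through which T cells read these ligands were measured for 17 of 17 listed genes, 12 lower and 5 higher in NPFF, with a median of -0.03, and no gene had an unadjusted p under 0.05 or groups that did not overlap. Most are lymphocyte genes, and the list's median percentile of signal was 32.2. Havcr2, which encodes TIM-3 and is also expressed by myeloid cells, lay at the 70.8th percentile. It stood at 7.82, 7.72 and 7.86 in NPFF and at 7.73, 8.13 and 8.13 in control, a difference of -0.19 (SE 0.12), or -0.33 without control 1. Lag3, an inhibitory receptor, differed by -0.10 (SE 0.09), or -0.05 without NPFF 1. Pdcd1, which encodes PD-1, differed by -0.11 (SE 0.10), or -0.05 without control 2 and -0.22 without control 3. Cd96 differed by 0.07 (SE 0.07), or 0.04 without NPFF 2 and 0.11 without NPFF 3. Against control 3 alone Pdcd1 differed by 0.11.

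Class II antigen presentation, which supplies the antigen signal that costimulation accompanies, had 11 of 12 genes measured, 9 higher and 2 lower, with a median of 0.05. Without control 1, 9 of the 11 were lower, at a median of -0.04, against 60.9% and -0.02 over all genes. Ciita, the master activator of class II genes, differed by -0.20 (SE 0.11), or -0.11 without control 1, and the peptide-loading gene H2-DMa by -0.15 (SE 0.09), or -0.09 without NPFF 1. Rfx5, a class II promoter factor, differed by 0.15 (SE 0.15), or -0.03 without control 1, and H2-DMb1 by 0.05 (SE 0.07), a feature at the 8.94th percentile of signal. No gene of the list had an unadjusted p under 0.05, and in none did the groups fail to overlap.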
